A study of Mus musculus with 16 samples.

Results

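The mouse genome annotation holds many genes with no name of their own, listed as Gm with a number (predicted gene models) or with the ending Rik (full-length cDNAs of the RIKEN collection). The genes described here are the 38 of these that were separated by testosterone in the mouse ovary. They were selected on their measured levels: CPM, the count of a gene scaled to its library total, averaged at least 0.5 over 16 libraries, and all 4 treated libraries lay above all 4 control libraries in each of 2 cohorts, or below them in both. The expression table held 55426 genes, 30697 of them with such a name, and 2362 of those reached the CPM limit. Of the 38 members, 10 were higher and 28 were lower in the testosterone libraries of both cohorts. Since this pattern chose them, their levels under testosterone are given as a description, without a test. Leaving out On T library 3, the rule gave 58 genes, which included all 38. With fewer libraries the rule is easier to meet, so this is not a test of the set.

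The inbred C57BL/6NHsd strain was used, and poly(A) RNA was sequenced from 1 ovary of each of 16 females, 4 per group. Mice of the On T group were injected once a week under the skin, over 6 weeks, with testosterone enanthate (0.9 mg), an ester from which testosterone is freed slowly. These mice, and the Control for On T mice that got sesame oil alone, were 16 weeks of age when the ovary was taken. The Post T mice had the same 6 weeks of testosterone, which was then withdrawn, and their ovaries were taken after 4 resumed estrous cycles at 24 to 28 weeks of age. Their controls (Control for Post T), also given oil, were 24 to 28 weeks old. Treatment began in all treated mice at 9 to 10 weeks of age, and all ovaries were taken in diestrus, a phase when a cycling ovary normally holds corpora lutea. The samples are whole ovaries, so fewer cells of a type and less RNA per cell cannot be told apart. Library totals ranged from 26598055 to 52659637 expected counts, and 3 counts in a library came to between 0.057 and 0.113 CPM, which is taken as the floor.

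Gene models and cDNA names of this kind cover several kinds of locus. Some are protein-coding genes that no study had named when the annotation was made, some are long noncoding RNAs, some are pseudogenes, and some are single-exon models marked TEC, for transcripts still to be experimentally checked. A noncoding RNA often starts near, or runs against, a protein-coding gene and may be made in the same cells. In the ovary, the corpus luteum is the transient gland that makes progesterone after ovulation, and macrophages clear it when it regresses. Both are referred to below, because several of the loci lie beside genes known from these cells.

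Promoters from RefSeq (GRCm38.p6; 250 bases before to 50 bases after the transcript start) were found for 27 of the 38 members, 7 higher and 20 lower. The 4 printed here are the lower member with the largest difference in Post T, a lower member whose promoter holds a motif of the steroidogenic nuclear receptors, and the 2 higher members that RefSeq lists as immune receptors. Capitals mark AAGGTCA (or TGACCTT on the other strand), the core bound by NR5A nuclear receptors such as SF-1, and AGGAAGT, a core bound by ETS factors such as PU.1 of myeloid cells.
D630023F18Rik, chr1:65123165-65123464, minus strand: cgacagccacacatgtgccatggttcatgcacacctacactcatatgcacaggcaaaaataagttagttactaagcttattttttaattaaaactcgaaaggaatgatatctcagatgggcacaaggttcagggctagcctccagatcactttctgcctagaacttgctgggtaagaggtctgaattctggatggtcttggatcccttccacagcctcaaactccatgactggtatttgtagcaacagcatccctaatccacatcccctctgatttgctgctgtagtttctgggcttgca
2010003K11Rik, chr19:4498534-4498833, minus strand: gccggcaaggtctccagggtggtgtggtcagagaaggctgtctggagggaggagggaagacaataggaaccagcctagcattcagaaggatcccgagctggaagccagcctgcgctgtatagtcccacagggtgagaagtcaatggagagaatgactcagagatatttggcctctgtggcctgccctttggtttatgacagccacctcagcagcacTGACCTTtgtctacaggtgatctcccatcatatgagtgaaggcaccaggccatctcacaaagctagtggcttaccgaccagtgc
Gm15922 (Pira1), chr7:3739868-3740167, minus strand: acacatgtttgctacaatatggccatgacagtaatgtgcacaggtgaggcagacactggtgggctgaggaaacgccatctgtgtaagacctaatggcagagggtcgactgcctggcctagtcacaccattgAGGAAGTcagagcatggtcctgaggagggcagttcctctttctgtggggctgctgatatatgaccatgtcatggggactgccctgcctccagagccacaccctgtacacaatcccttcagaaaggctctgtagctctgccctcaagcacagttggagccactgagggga
A530064D06Rik (Trem4), chr17:48167208-48167507, minus strand: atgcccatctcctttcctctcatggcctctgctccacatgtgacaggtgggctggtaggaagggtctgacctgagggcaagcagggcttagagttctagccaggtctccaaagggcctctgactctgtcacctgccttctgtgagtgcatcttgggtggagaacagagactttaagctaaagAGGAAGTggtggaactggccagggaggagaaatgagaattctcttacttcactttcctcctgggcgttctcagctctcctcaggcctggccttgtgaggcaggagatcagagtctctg

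Both strands were searched, and each printed sequence held at most 1 match. The NR5A core began 34 bases before the start of 2010003K11Rik. It was in the promoters of 1 of 7 higher members (Gm15201) and 2 of 20 lower members (2010003K11Rik and Gm11639), against 4.72% of all 32851 mouse promoters in the table. The ETS core began 119 bases before the start of Gm15922 and 68 bases before that of A530064D06Rik. Of the member promoters searched, only these held it, 2 of 7 among higher members and 0 of 20 among lower members, against 9.35% of all promoters. The cAMP response element TGACGTCA was in 0 members and 1.79% of promoters, and the palindrome of the androgen response element (AGAACA, any 3 bases, then TGTTCT) was in 0 members and 0.00913% of promoters. A match is a description of the letters in this window and not a binding site shown in these ovaries. Some RefSeq starts of lower members lay far from the start in GENCODE. The distance was 95502 bases in Gm11639, 27876 in D030028A08Rik, 13068 in Gm32219, 12627 in Gm19705 and 2810 in 1110002E22Rik. Those of the 4 printed promoters lay within 28 bases of it.

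D630023F18Rik and 1110002E22Rik had the largest differences of all members, and both are annotated as protein-coding. D630023F18Rik (chromosome 1, 65105285 to 65123214, minus strand) had 0.152, 0.31, 0.173 and 0.145 CPM in the On T libraries, against 13.0, 39.9, 15.6 and 42.6 CPM in their controls. In the later cohort it had 0.119, 0.206, 0.198 and 0.203 CPM in Post T, against 18.6, 16.6, 32.4 and 51.2 CPM in its controls. The treated ovaries held 5 to 9 counts each, close to the floor, while control ovaries held between 496 and 2070 counts. The log2 fold changes were -7.21 (SE 0.56) in On T and -7.31 (SE 0.56) in Post T. Its exons overlap those of Gm28845 on the same strand over 14.4% of their bases, and Gm28845 stayed at or under 0.544 CPM in every library. Its nearest named gene, Cryga, a lens crystallin, had too few counts to be tested.

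1110002E22Rik (chromosome 3, 138065052 to 138081506, plus strand) had 0.0949, 0.345, 0.115 and 0.145 CPM in On T, against 12.9, 70.5, 12.4 and 76.7 CPM in the controls. It had 0.0239, 0.147, 0.0988 and 0.203 CPM in Post T, against 8.16, 12.9, 15.9 and 30.8 CPM in the controls of that cohort. The log2 fold changes were -8.05 (SE 0.81) and -7.08 (SE 0.83), and rest on 4 to 10 counts per On T library and 1 to 9 per Post T library. All treated libraries lay far under all controls in both genes. Mttp, the lipid transfer protein gene of lipoprotein assembly that lies 8348 bases away on the other strand, differed little, with a log2 fold change of 0.11 in On T (edgeR adjusted p = 0.741) and -0.51 in Post T (adjusted p = 0.0454).

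**Figure D1:**
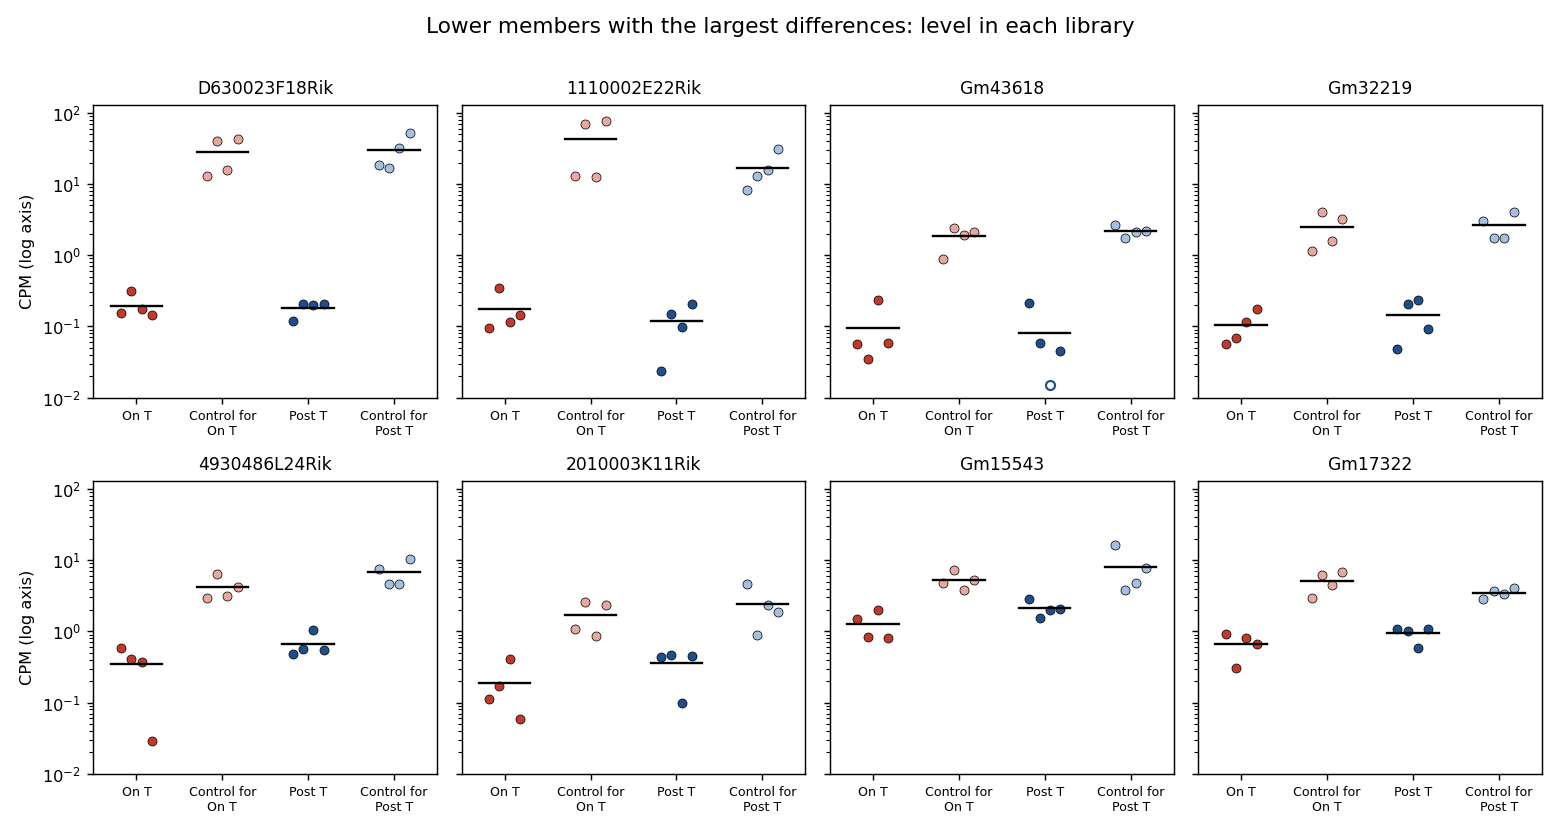
Level in each library (points, CPM on a log axis) of the 8 lower members with the largest differences among those averaging at least 1 CPM; lines are means of 4 libraries and the open circle is a library with 0 counts, drawn at the bottom of the axis. D630023F18Rik and 1110002E22Rik lie at 0.345 CPM or less in all treated libraries and at 8.16 CPM or more in all controls.

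In several lower members the spread was among the control ovaries. Control for On T libraries 2 and 4 held 39.9 and 42.6 CPM of D630023F18Rik, against 13.0 and 15.6 CPM in libraries 1 and 3 of that group, and 70.5 and 76.7 CPM of 1110002E22Rik, against 12.9 and 12.4 CPM. The long noncoding D030028A08Rik had the same order, with 5.72, 7.45, 5.63 and 6.76 CPM in On T, against 15.1, 37.8, 14.9 and 45.3 CPM in controls 1 to 4. Gm19705 and Gm32219 did too, at 0.851, 2.82, 1.03 and 4.28 CPM and at 1.13, 4.02, 1.57 and 3.19 CPM in the 4 controls. The order was turned round in Gm39090, with 2.12, 0.872, 2.32 and 0.758 CPM, and in Gm11639, with 2.4, 0.906, 2.24 and 1.05 CPM. Among luteal genes, Star, the carrier of cholesterol into mitochondria, had 376, 567, 318 and 574 CPM in these controls, and the prostaglandin F receptor Ptgfr had 193, 483, 229 and 342 CPM. Lhcgr also kept this order, at 273, 377, 206 and 283 CPM. Other luteal genes did not: Akr1c18 had 131, 140, 191 and 104 CPM, Cyp11a1 5170, 5060, 4690 and 4850 CPM, and Hsd3b1 5430, 4160, 4710 and 4930 CPM. The summed level of 12 luteal markers differed little between these controls, at 14300, 14300, 12900 and 14700 CPM.

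The next lower members were also near the floor after testosterone. Gm43618, a TEC model of a single exon on chromosome 3 (151836505 to 151839955, plus strand), had 0.057, 0.0345, 0.231 and 0.058 CPM in On T, against 0.894, 2.38, 1.93 and 2.14 CPM in the controls. It had 0.215, 0.059, 0 and 0.0452 CPM in Post T, against 2.63, 1.77, 2.12 and 2.2 CPM. The log2 fold changes of -4.25 (SE 0.55) and -4.60 (SE 0.55) rest on 1 to 8 counts per On T library and 0 to 9 per Post T library, and were -5.07 without On T library 3 and -5.73 without Post T library 1. Gm32219, a long intergenic noncoding RNA on chromosome 12 (70522598 to 70544587, plus strand), had 0.057, 0.069, 0.115 and 0.174 CPM in On T, against 1.13, 4.02, 1.57 and 3.19 CPM. In Post T it had 0.0478, 0.206, 0.231 and 0.0903 CPM, against 3.05, 1.74, 1.76 and 4.06 CPM (log2 fold changes -4.58, SE 0.55, and -4.23, SE 0.53). No treated library of either gene reached the lowest control library.

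4930486L24Rik (chromosome 13, 60842612 to 60864475, minus strand), a protein-coding locus, had 0.589, 0.414, 0.375 and 0.029 CPM in On T, against 2.99, 6.44, 3.15 and 4.23 CPM in controls. It had 0.478, 0.56, 1.05 and 0.542 CPM in Post T, against 7.48, 4.69, 4.7 and 10.5 CPM (log2 fold changes -3.53, SE 0.48, and -3.37, SE 0.46). Of its exonic bases, 88.6% are also annotated as the model Gm49392 on the same strand, so the split of reads between these models is uncertain. Gm49392 was listed at 0.724 CPM or less in every library. It had 0.076, 0.724, 0 and 0.551 CPM in On T, against 0.218, 0, 0.155 and 0.287 CPM in controls. In On T library 4, where 4930486L24Rik had 0.029 CPM, more was thus listed under Gm49392. The part of this in the fold change was not tested.

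2010003K11Rik (chromosome 19, 4496788 to 4498583, minus strand), a protein-coding locus that RefSeq also lists as Nrnp1, had 0.114, 0.172, 0.404 and 0.058 CPM in On T, against 1.09, 2.55, 0.851 and 2.35 CPM. It had 0.43, 0.472, 0.0988 and 0.452 CPM in Post T, against 4.62, 0.887, 2.37 and 1.88 CPM. The lowest control of each cohort, at 0.851 and 0.887 CPM, still lay above every treated library. The log2 fold changes were -3.21 (SE 0.62; -3.89 without On T library 3) and -2.69 (SE 0.57).

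Gm17322 on chromosome 9 (57998041 to 58007451, plus strand) is a long noncoding RNA in GENCODE and a pseudogene in RefSeq. It overlaps Cyp11a1, the enzyme that cleaves the side chain of cholesterol in the first step of steroid synthesis. It had 0.912, 0.31, 0.808 and 0.667 CPM in On T, against 2.95, 6.2, 4.49 and 6.79 CPM, and 1.08, 1.0, 0.593 and 1.08 CPM in Post T, against 2.89, 3.68, 3.3 and 4.1 CPM. The log2 fold changes were -2.90 (SE 0.32) and -1.86 (SE 0.30). Gm15543, a short RNA of 361 exonic bases that runs antisense within Casc1, had 1.48, 0.827, 1.99 and 0.812 CPM in On T, against 4.8, 7.18, 3.82 and 5.23 CPM. It had 2.84, 1.53, 2.01 and 2.03 CPM in Post T, against 16.2, 3.8, 4.79 and 7.71 CPM (log2 fold changes -2.04, SE 0.43, and -1.93, SE 0.42). One control ovary held 16.2 CPM of Gm15543, and without that library the Post T fold change was -1.30.

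Lower members at higher levels differed by less. D030028A08Rik, a noncoding transcript of 14 merged exons on chromosome 11, had 6.14, 7.31, 5.2 and 6.1 CPM in Post T, against 12.1, 12.3, 18.9 and 39.6 CPM in controls. Its log2 fold changes were -2.17 (SE 0.39) in On T and -1.72 (SE 0.39) in Post T. The most abundant member, 4833439L19Rik, which RefSeq also lists as P33monox, had 84.5, 92.1, 95.6 and 89.4 CPM in On T, against 113, 127, 105 and 123 CPM. It had 111, 102, 102 and 115 CPM in Post T, against 128, 115, 118 and 133 CPM. The groups of the later cohort met at 115 CPM to 3 digits, and the log2 fold changes were -0.39 (SE 0.08) and -0.18 (SE 0.08).

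D030056L22Rik, a protein-coding locus of 2 merged exons beside Carnmt1, had 30.3, 30.7, 31.6 and 30.0 CPM in On T, against 41.4, 55.5, 39.7 and 51.4 CPM. It had 27.4, 25.1, 21.6 and 30.0 CPM in Post T, against 55.4, 36.8, 46.3 and 46.9 CPM (log2 fold changes -0.64 and -0.81, SE 0.14 each). The On T libraries of this gene lay close together, under all controls. E130309D02Rik, also protein-coding, had 29.8, 29.9, 32.6 and 32.1 CPM in On T, against 32.8, 36.7, 34.5 and 34.8 CPM (log2 fold change -0.18, SE 0.08), and -0.27 (SE 0.08) in Post T. Gm14410, a protein-coding model on chromosome 2, had 10.3, 8.55, 8.57 and 8.76 CPM in On T, against 11.7, 19.1, 11.4 and 13.8 CPM (log2 fold change -0.64, SE 0.24), and -0.96 (SE 0.24) in Post T. Of its windows of 100 bases, 75.2% occur unchanged in at least 1 of 19 other genes, most in Gm14308, so its counts are uncertain.

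Gm31135, a long intergenic noncoding RNA that at a mean of 0.561 CPM was the least abundant lower member, had 0.19, 0.172, 0.0866 and 0.232 CPM in On T, against 0.676, 1.58, 1.14 and 1.31 CPM (log2 fold change -2.76, SE 0.37), and -1.97 (SE 0.38) in Post T. Among noncoding members, Gm36377 had log2 fold changes of -1.87 (SE 0.31) in On T and -1.51 (SE 0.32) in Post T, Gm36201 of -1.34 and -1.21 (SE 0.23 each), and Gm10575 of -1.16 and -1.12 (SE 0.32 each). The TEC models Gm42528 (-0.96 and -0.79) and Gm45428 (-0.89 and -0.74) and the processed pseudogene Gm29787 (-0.91 and -0.86) were close to each other. Among coding loci, 2200002D01Rik, which RefSeq also lists as H2RSP, had -0.86 (SE 0.26) and -1.07 (SE 0.27), 2510002D24Rik had -0.30 and -0.65 (SE 0.14 each) and Gm10643 had -0.51 (SE 0.18) and -0.28 (SE 0.19), beside -0.37 and -0.55 (SE 0.16 each) in the antisense Gm50069. Over all 28 lower members, log2 fold changes ran over -8.05 to -0.18 in On T and -7.31 to -0.18 in Post T, with medians of -1.49 and -1.36, while the median of all 18833 tested genes was -0.005 and -0.01. At least a 2-fold difference in both cohorts was seen in 16 of the 28, at least 8-fold in 5, and under 1.5-fold in both in 4. Of 12 luteal markers measured beside them, 8 were called lower in On T and 7 in Post T, and none was called higher. The summed level of the 12 was 5050 to 9270 CPM in On T, against 12900 to 14700 CPM, and 5990 to 11000 CPM in Post T, against 10700 to 21400 CPM. What part this has in the lower members was not tested.

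Among the 10 higher members, Gm15922 and Gm15931 lie in the receptor cluster at the proximal end of chromosome 7 and had the largest fold changes of the 10 in Post T, while Gm4952 had the largest in On T. Gm15922 (3731630 to 3739889, minus strand) is annotated as a polymorphic pseudogene in GENCODE and as Pira1 in RefSeq, an activating paired immunoglobulin-like receptor of myeloid and B cells. It had 0.855, 1.34, 0.404 and 0.725 CPM in On T, against 0.175, 0, 0.31 and 0.235 CPM in the controls. It had 4.59, 4.63, 5.27 and 4.72 CPM in Post T, against 0.451, 0.349, 0.91 and 0.767 CPM (log2 fold changes 2.10, SE 0.48, and 2.96, SE 0.41). Of its windows of 100 bases, 79.2% occur unchanged in at least 1 of 8 other genes, most in Pira2, so reads of these receptors may be split between copies. Pira2 itself had 4.1, 5.52, 3.12 and 4.96 CPM in On T, against 1.27, 0.637, 0.619 and 0.732 CPM, and 31.5, 35.5, 39.1 and 30.0 CPM in Post T, against 1.54, 2.41, 3.55 and 1.71 CPM.

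Gm15931 (4274189 to 4282645, plus strand), a pseudogene model 534300 bases from Gm15922 and the closest pair of members on any chromosome, had 0.684, 0.552, 0.49 and 0.58 CPM in On T, against 0.175, 0.168, 0.0516 and 0.209 CPM. It had 1.98, 1.59, 1.55 and 1.54 CPM in Post T, against 0.338, 0.285, 0.455 and 0.272 CPM (log2 fold changes 1.91, SE 0.31, and 2.33, SE 0.27). A530064D06Rik on chromosome 17 (48149126 to 48167275, minus strand), listed by RefSeq as Trem4, is a receptor of the TREM family known from plasmacytoid dendritic cells. It had 0.475, 1.14, 0.548 and 0.464 CPM in On T, against 0.415, 0.268, 0.361 and 0.235 CPM, a narrow gap. The gap was wider in Post T, with 2.34, 2.21, 2.31 and 1.49 CPM against 0.376, 0.57, 0.97 and 0.371 CPM (log2 fold changes 0.96, SE 0.36, and 1.89, SE 0.33). Of 10 macrophage markers, 8 were called higher in On T and 9 in Post T and none lower. Their summed level was 689 to 1330 CPM in On T, against 264 to 465 CPM, and 5270 to 7870 CPM in Post T, against 498 to 1220 CPM. What part this has in the receptor loci was not tested.

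**Figure D2:**
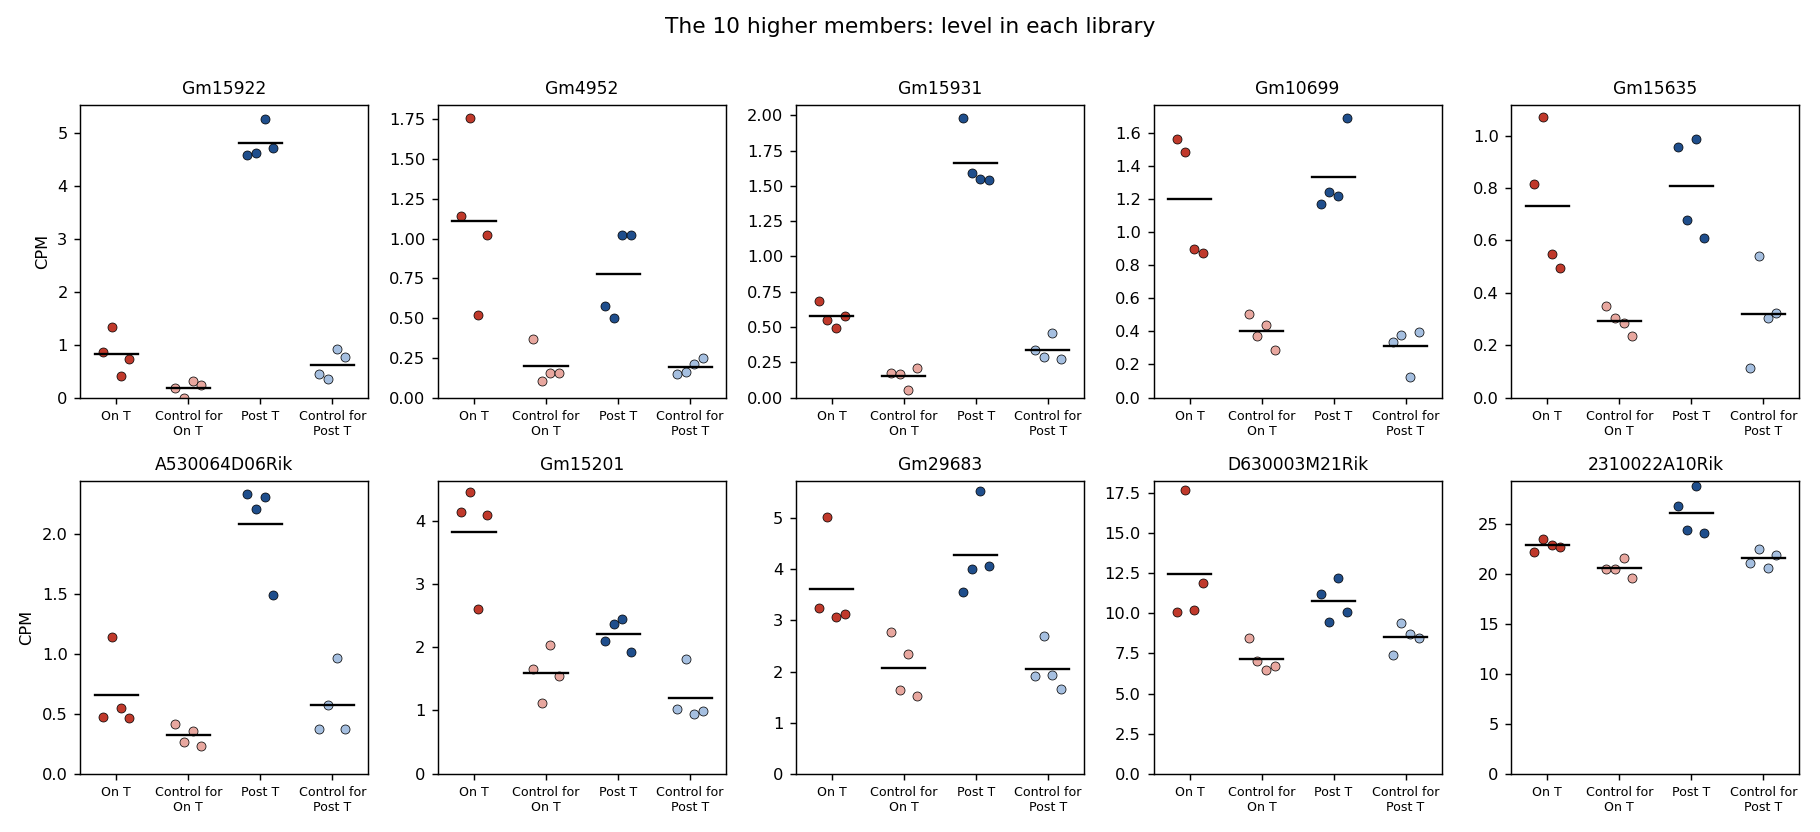
Level in each library (points, CPM, axes from 0) of the 10 higher members, with lines at the means of 4 libraries. Gm15922, Gm15931 and A530064D06Rik have their highest values in Post T, where Gm15922 reaches 5.27 CPM, while Gm4952 and Gm15201 have theirs in On T.

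Gm4952 and Gm15201 had their highest levels in On T. Gm4952, a protein-coding model beside the glycine acyltransferase gene Glyat on chromosome 19 (12599974 to 12628251, plus strand), had 1.14, 1.76, 0.519 and 1.02 CPM in On T, against 0.371, 0.101, 0.155 and 0.157 CPM. It had 0.573, 0.501, 1.02 and 1.02 CPM in Post T, against 0.15, 0.158, 0.212 and 0.247 CPM (log2 fold changes 2.40, SE 0.41, and 2.00, SE 0.43). Glyat had counts in 2 of the 16 libraries only, at 0.152 CPM or less. Gm15201, a noncoding transcript on the X chromosome, had 4.14, 4.45, 2.6 and 4.09 CPM in On T, against 1.66, 1.11, 2.04 and 1.54 CPM. It had 2.1, 2.36, 2.44 and 1.92 CPM in Post T, against 1.02, 1.81, 0.94 and 0.989 CPM (log2 fold changes 1.24, SE 0.23, and 0.92, SE 0.24). In Post T the lowest treated library lay just above the highest control.

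Gm29683, a long noncoding RNA 14092 bases from Nr2f2, the gene of the nuclear receptor COUP-TFII, had 3.25, 5.03, 3.06 and 3.13 CPM in On T, against 2.77, 1.64, 2.35 and 1.52 CPM. It had 3.56, 4.01, 5.53 and 4.06 CPM in Post T, against 1.92, 2.69, 1.94 and 1.66 CPM (log2 fold changes 0.77 and 1.09, SE 0.23 each). D630003M21Rik, a protein-coding locus of 16 merged exons on chromosome 2, had 10.1, 17.7, 10.2 and 11.9 CPM in On T, against 8.44, 7.01, 6.45 and 6.74 CPM. It had 11.2, 9.49, 12.2 and 10.1 CPM in Post T, against 7.41, 9.41, 8.7 and 8.48 CPM (log2 fold changes 0.77 and 0.37, SE 0.16 each). The groups of the later cohort nearly touched, at 9.49 and 9.41 CPM. The most abundant higher member, 2310022A10Rik on chromosome 7, had 22.2, 23.5, 22.9 and 22.7 CPM in On T, against 20.5, 20.5, 21.6 and 19.6 CPM (log2 fold change 0.13, SE 0.08), and 26.8, 24.4, 28.8 and 24.1 CPM in Post T, against 21.1, 22.5, 20.6 and 21.9 CPM (0.30, SE 0.08).

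Gm15635, an RNA antisense to the anion transporter gene Slco2b1, was the least abundant of all members, at a mean of 0.538 CPM. It had 0.817, 1.07, 0.548 and 0.493 CPM in On T, against 0.349, 0.302, 0.284 and 0.235 CPM (log2 fold change 1.28, SE 0.35), and 1.34 (SE 0.35) in Post T. The TEC model Gm10699 had 1.17, 1.24, 1.22 and 1.69 CPM in Post T, against 0.338, 0.38, 0.121 and 0.396 CPM (log2 fold change 2.12, SE 0.32), and 1.56 (SE 0.30) in On T. The median log2 fold change of the 10 higher members was 1.26 in On T and 1.62 in Post T, and 5 of the 10 differed at least 2-fold in both cohorts. Within groups, single libraries stood out across these members. On T library 2 was the highest of its group in 8 of 10, and Post T library 3 in 7 of 10. These libraries also had the highest summed macrophage markers of their groups, 1330 CPM in On T library 2 and 7870 CPM in Post T library 3. On T library 2 further held 2890 CPM of endothelial and smooth muscle markers, against 1350 to 1600 CPM in the other On T libraries, and 2450 CPM of granulosa markers, against 6240 to 8510 CPM. The part of these in the members' values was not tested. Just outside the CPM limit, 4930512H18Rik (mean 0.431 CPM) had 1.16, 1.31, 0.433 and 0.812 CPM in On T, against 0.131, 0.134, 0.181 and 0.183 CPM, while 9130017K11Rik (0.494 CPM) and Gm3716 (0.479 CPM) were lower in both cohorts. In all, 26 genes met every part of the rule but the CPM limit.

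**Figure D3:**
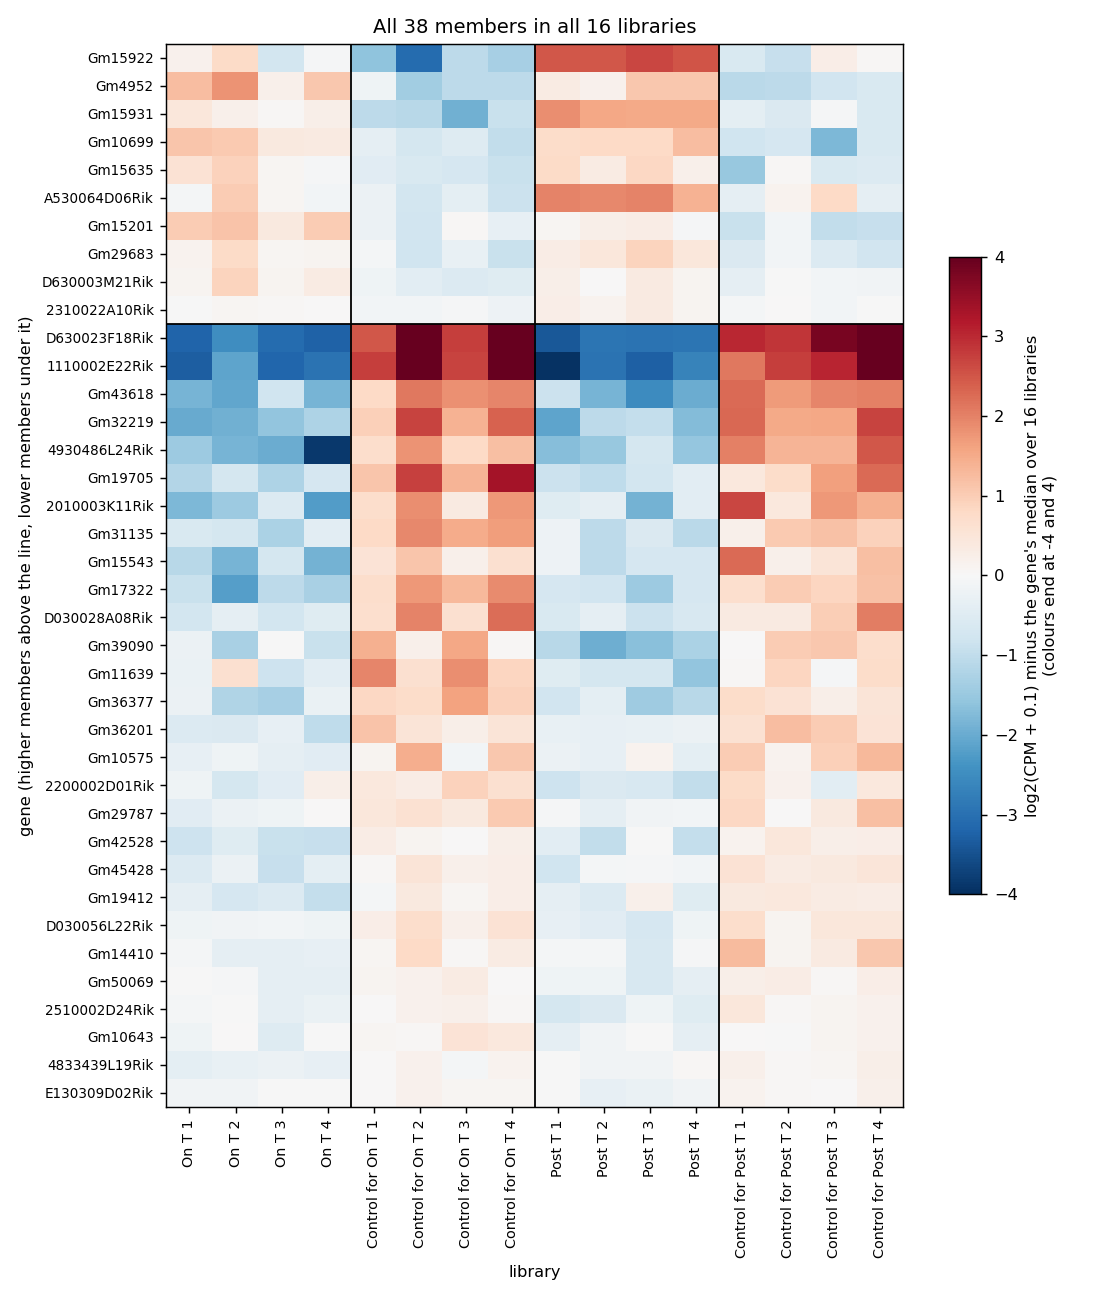
All 38 members (rows) in all 16 libraries (columns): colour is log2(CPM + 0.1) minus the gene's median over the libraries, red above and blue below, with higher members above the horizontal line. D630023F18Rik and 1110002E22Rik give the strongest contrast, and the bottom rows, such as E130309D02Rik, differ little in colour.

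The test over all genes placed these differences against the background. In On T, 31 members were called at an edgeR adjusted p under 0.05 (8 higher and 23 lower). Of all 18833 tested genes, 9.27% were called (4.24% higher and 5.03% lower). In Post T, 32 members were called (9 higher and 23 lower), while 12.3% of all tested genes were (7.49% higher and 4.81% lower). In both cohorts 27 members were called, 7 higher and 20 lower. Of all tested genes, 4.07% were called in the same direction in both cohorts (1.76% higher and 2.3% lower), and of the predicted and Rik genes 50 were (1.46% of the class, 0.468% higher and 0.994% lower). The counts of members follow from how they were chosen, and nothing is read from them. Gm10643 and E130309D02Rik were called in neither cohort, with log2 fold changes between -0.51 and -0.18.

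The class of predicted and Rik genes is given beside the other genes as a description. Of 3421 such genes tested, members or not, 151 (4.41%) were called in On T, 57 higher (1.67%) and 94 lower (2.75%), against 10.3% of the 15412 other tested genes. In Post T, 189 (5.52%) were called, 108 higher (3.16%) and 81 lower (2.37%), against 13.8% of the other genes. The sets differ in level: 2362 genes of the class reached the CPM limit and 3421 were tested, against 14491 and 15412 of the others. The part of level in these shares was not tested. The On T count of the class was 81 without On T library 1, 99 without Control for On T library 2 and 84 without Control for On T library 4, and the count over all genes was 1094 and 1081 without each of these controls, against 1746 with all libraries. At the CPM limit, 3.94% of the class lay wholly above and 5.17% wholly below the controls in On T, and 4.7% and 3.6% in Post T. Over all 16853 genes at that limit these shares were 8.05% and 7.65% in On T and 8.87% and 8.82% in Post T. In both cohorts the members are 0.423% (higher), 1.19% (lower) and 1.61% (together) of the class, while all genes at that limit gave 2.14%, 2.94% and 5.07%. Separation in opposite directions was seen in 2 genes of the class (0.0847%) and in 52 of all genes at the limit (0.309%).

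Differences in the share of all counts that fell in predicted and Rik genes were within the spread between ovaries. It was 2.90 ± 0.247% in On T and 3.09 ± 0.262% in the controls (SD, n = 4 each; difference -0.188 percentage points, exact two-sided permutation p = 0.371, smallest possible 0.0286). It was 3.23 ± 0.298% in Post T and 2.94 ± 0.207% in the controls (difference 0.285, exact permutation p = 0.171). The 38 members held 0.0237% to 0.0258% of counts in On T, against 0.0332% to 0.0496% in controls, and 0.0249% to 0.0272% in Post T, against 0.0341% to 0.0479%. Named long noncoding RNAs such as Malat1 and Neat1, 34 of which were tested, gave 1 higher and 1 lower call in On T and 0 higher and 3 lower in Post T, with medians of 0.12 and 0.00 on the log2 scale.

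Kinds of locus are given from GENCODE, with no test. Members had to reach the CPM limit and the tested class did not, so their shares are not at the same levels. Protein-coding genes made up 16 of the 38 (42.1%), against 16.1% of the tested class, and pseudogenes 3 (7.89%), against 38%. Long noncoding RNAs made up 15 (39.5%), against 36.1%, and TEC models 4 (10.5%), against 9.62%. Over the class, 6.55% of protein-coding genes were called in On T and 10.4% in Post T, and 2.15% and 2.23% of pseudogenes. Of the protein-coding members 4 were higher and 12 lower, and of the long noncoding ones 3 were higher and 12 lower. Members lay on 16 chromosomes, with 8 of them on chromosome 7, and none was within 100 kb of another.

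Because the members have few described roles, the nearest named protein-coding gene of each was examined. These neighbours were not part of the rule, though they were compared in the same libraries. Of the 38 members, 13 overlap their neighbour, and overlapping genes may share reads. Of the 12 tested neighbours that overlap lower members, 3 were called lower in On T and 3 in Post T. In these, 0 and 1 were called higher. The part of shared reads in the calls was not tested. Of 7 tested neighbours of higher members, 5 were called higher in On T and 3 in Post T, and none lower. Of 27 tested neighbours of lower members, 5 were called lower in On T and 7 in Post T, with 0 and 1 called higher. Neighbours of the other predicted and Rik genes, 2952 of them tested, were called higher in 4.57% and lower in 5.72% of cases in On T, and in 7.83% and 5.59% in Post T. In each cohort taken alone, most tested neighbours of lower members had no call. Neighbours with too few counts to be tested are left out of these counts.

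Gm43618 and Gm17322 overlap genes of the luteal marker list. Ptgfr, the prostaglandin F receptor through which luteal regression is triggered, runs opposite to Gm43618 and had 3.32, 0.724, 6.69 and 1.71 CPM in On T, against 193, 483, 229 and 342 CPM. It had 4.56, 4.78, 2.47 and 4.4 CPM in Post T, against 479, 332, 395 and 510 CPM, with log2 fold changes of -6.64 (edgeR adjusted p = 5.42e-07) and -6.69 (adjusted p = 2.38e-07). The exons of Gm43618 lie over those of Ptgfr in 9.53% of their bases. Cyp11a1, on the same strand as Gm17322, had 901, 943, 2230 and 627 CPM in On T, against 5170, 5060, 4690 and 4850 CPM (log2 fold change -2.09, adjusted p = 0.000864). In Post T it had 2810, 2070, 1420 and 2920 CPM, against 5900, 3240, 3590 and 5470 CPM, and was not called (-0.96, adjusted p = 0.0686). Of the exonic bases of Gm17322, 6.69% are shared with Cyp11a1. Both neighbours were far more abundant than the members in control ovaries. Whether reads of Ptgfr or Cyp11a1 were counted for Gm43618 or Gm17322 was not tested.

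Efcab3, an EF-hand gene that overlaps the end of Gm11639 on the same strand and shares 12% of the exonic bases of Gm11639, fell in both cohorts, with log2 fold changes of -4.02 (adjusted p = 2.8e-05) and -2.33 (adjusted p = 0.00143), against -1.79 (SE 0.41) and -1.52 (SE 0.46) in Gm11639. Tmx1, a thioredoxin-like protein gene of the endoplasmic reticulum 54558 bases from Gm32219, was lower by little (-0.44, adjusted p = 0.00559, and -0.53, adjusted p = 0.000663). Lrrc30, 1632 bases from Gm36201, had a log2 fold change of -1.32 in On T (adjusted p = 0.0118), close to the -1.34 of Gm36201, and was not called in Post T (-0.51, adjusted p = 0.353). Mttp (-0.51), Carnmt1 (-0.45), Casc1 (-0.58) and Hs3st1 (-0.52), the neighbours of 1110002E22Rik, D030056L22Rik, Gm15543 and Gm42528, were called lower in Post T and not in On T. Tapbp, the peptide-loading chaperone of MHC class I, lies opposite 85.3% of the exonic bases of Gm19412 and was called higher in Post T (0.49, adjusted p = 0.002), while Gm19412 was lower in both cohorts (-0.85 and -0.65, SE 0.21 each). Sp2 runs opposite to D030028A08Rik and had log2 fold changes of 0.14 and 0.21, neither called.

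Among higher members, Pirb, the inhibitory partner of the Pira receptors 11239 bases from Gm15922, had 11.2, 13.7, 6.0 and 11.4 CPM in On T, against 5.61, 4.49, 5.19 and 5.51 CPM, and 58.3, 62.4, 70 and 55.6 CPM in Post T, against 7.11, 10.7, 14.3 and 7.54 CPM. Its log2 fold changes were 1.00 (adjusted p = 0.00793) and 2.67 (adjusted p = 4.63e-07), and the difference between them passed the test (1.67, adjusted p = 0.00468). Lilra5, 30726 bases from Gm15931, was called in On T (1.08, adjusted p = 0.0296) and not in Post T (0.48, adjusted p = 0.338). Slco2b1 was higher in both cohorts (0.90, adjusted p = 0.00268, and 1.11, adjusted p = 0.000205), as was the lysosomal gene Pld3, 15 bases from 2310022A10Rik on the other strand (0.54, adjusted p = 0.00628, and 1.53, adjusted p = 2.38e-07).

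**Figure D4:**
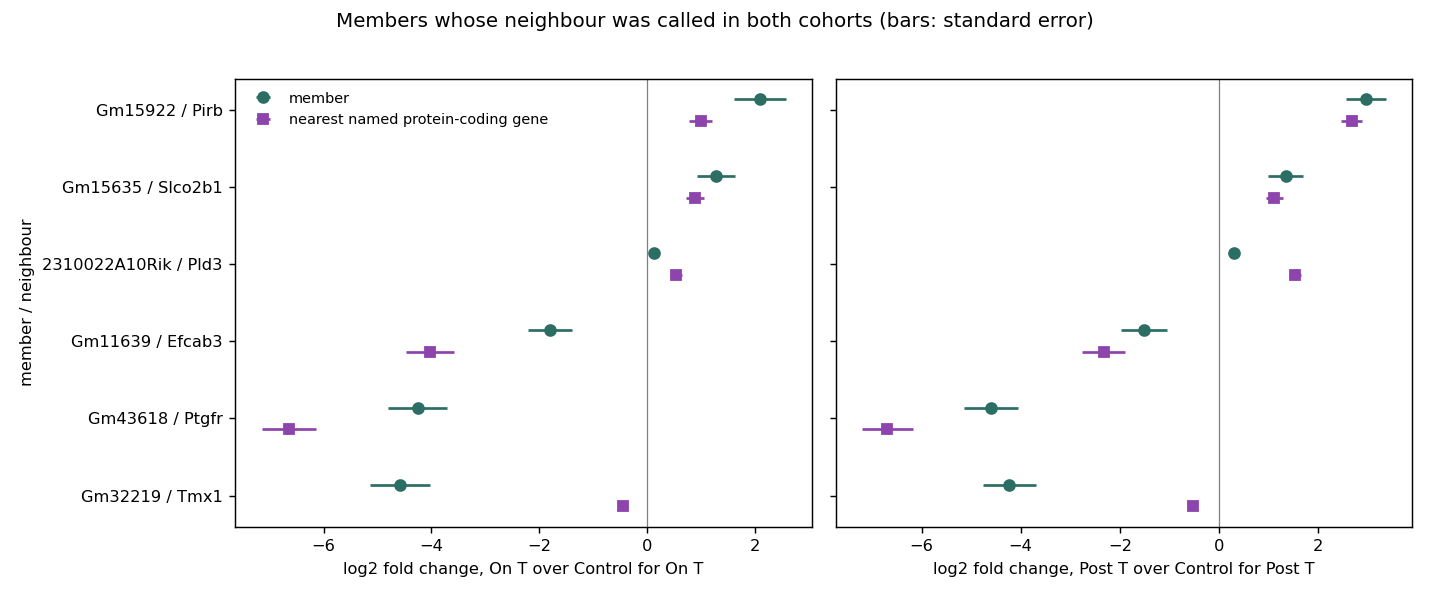
Log2 fold changes (x axis, bars are standard errors) of the 6 members whose nearest named protein-coding gene was called in both cohorts (circles) and of that gene (squares), On T on the left and Post T on the right. Ptgfr and Efcab3 lie further from 0 than Gm43618 and Gm11639, while Tmx1 lies at -0.44 and -0.53 beside -4.58 and -4.23 of Gm32219.

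The difference of the 2 effects was fitted across all genes. The rule used the same values and kept only genes separated the same way in both cohorts, so the members' values are a description and nothing is read from their count beside the background. None of the 38 members was called (edgeR adjusted p under 0.05), against 3.25% of all tested genes and 1.05% of the predicted and Rik genes. By unadjusted p under 0.05 the count was 1, Gm17322, whose log2 fold change was closer to 0 in Post T (difference 1.04, SE 0.43, edgeR adjusted p = 0.263). DESeq2 called 0 members, with 1 at an unadjusted p under 0.05, and limma on log2(TPM + 1) called 2, Gm15922 and Gm15931, with 6 at an unadjusted p under 0.05. The estimated difference for Gm15922 was 0.86 (SE 0.65), that for A530064D06Rik was 0.93 (SE 0.49), and that for Gm19705 was 1.40 (SE 0.88). With standard errors of this size, equal and unequal effects could not be told apart in these genes. Among the 28 lower members 19 had the larger fold change in On T and 9 in Post T, and among the 10 higher members 3 and 7.

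**Figure D5:**
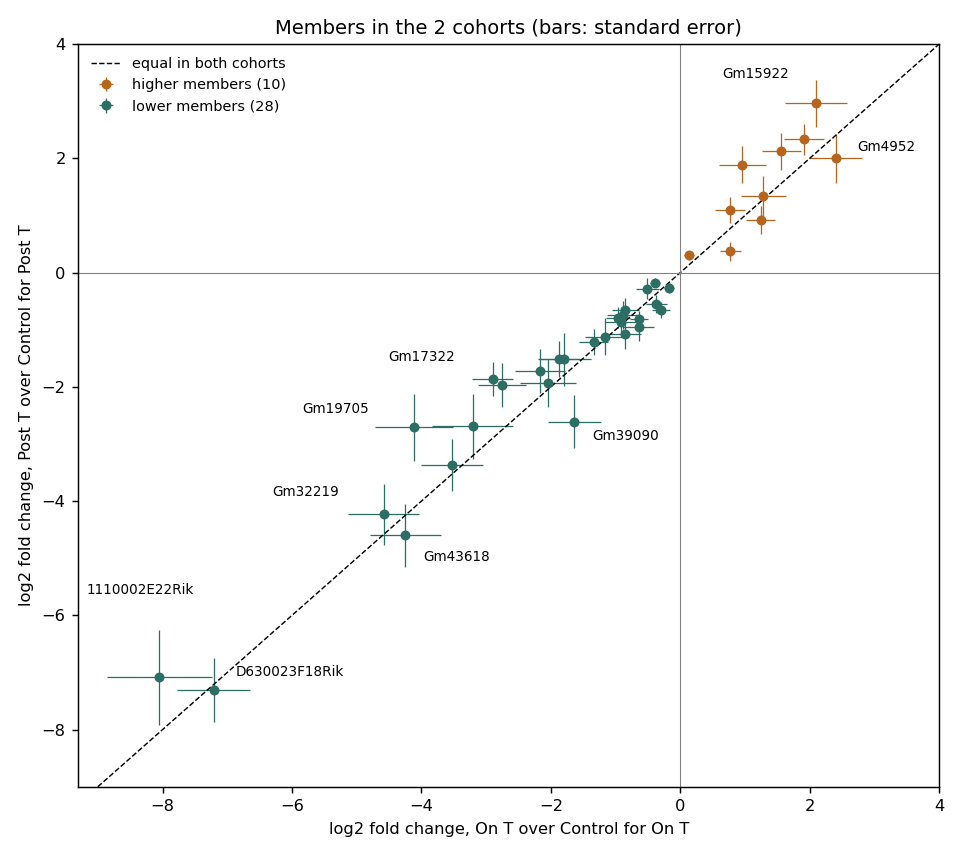
Log2 fold change of each member in On T (x axis) and Post T (y axis), with standard errors as bars and the line of equal change dashed. The points run along the line from 1110002E22Rik to Gm15922, and Gm19705, Gm17322 and Gm39090 are among those further from it.

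The controls of the cohorts differ in age, so older and younger control ovaries were compared as well, where age and cohort cannot be told apart. Of members and of all genes, edgeR called 0 (0% of all tested genes and 0% of predicted and Rik genes). By unadjusted p under 0.05 there were 6 members and 1892 genes (10% of all tested). DESeq2 called 1 member, Gm15922, and 173 genes, and limma called 0 of either. Gm15922 averaged 0.619 ± 0.263 CPM in the older controls and 0.18 ± 0.132 CPM in the younger ones (SD, n = 4 each; log2 fold change 1.72, SE 0.49, edgeR adjusted p = 0.248). 1110002E22Rik averaged 17.0 ± 9.76 CPM in older controls and 43.1 ± 35.3 CPM in younger ones (-1.36, SE 0.52, adjusted p = 0.384).

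Per transcript length the members rank differently. On the TPM scale, which divides by length, 4833439L19Rik was still the highest, at a mean of 66.7 TPM, followed by Gm15543 at 46.1 TPM, whose annotated exons are short, and D030056L22Rik at 34.7 TPM. D630023F18Rik averaged 0.203 TPM in On T, against 30.8 TPM in controls, and 0.16 TPM in Post T, against 31.5 TPM. 1110002E22Rik, of 9998 exonic bases, averaged 0.025 TPM in On T, against 6.17 TPM, and 0.015 TPM in Post T, against 2.38 TPM. Gm11639, with 17907 exonic bases in 188 merged exons, was lowest at 0.0775 TPM. On this scale its On T library 4, at 0.24 TPM, lay above all 4 controls, at 0.07 to 0.23 TPM, and limma on log2(TPM + 1) did not call it (-0.07, adjusted p = 0.637). Of the 38 members, 28 had no overlap of groups on the TPM scale in both cohorts.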

How the data were processed

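The deposited expected counts, raw estimates per gene made by the authors, were all whole numbers on inspection. TPM values were also deposited by the authors and are scaled for length and library size. FPKM values were not used. Named in the submitters' processing notes are RSEM (version 1.3.3), STAR (2.7.8a), FastQC (0.11.8), cutadapt (2.3) and the build GRCm38, with no order. The libraries are directional per the labels, and the use of strand in counting is not given in the sources used here.

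All 16 libraries entered a single edgeR model (edgeR 4.0.16 under R 4.3.3; filterByExpr, minimum count 10, keeping 18833 of 55426 genes; TMM scaling; 1 mean per group; quasi-likelihood F test with Benjamini-Hochberg adjustment at 0.05). Common biological variation was 0.179. The pipeline was tested on simulated data. Standard errors follow from the fold change and F statistic. CPM values use the plain library total, and intervals and floors cover counting error only. The labels call the samples biological replicates, 1 mouse each. Locus kinds and coordinates come from GENCODE M21 (GRCm38), which held 55240 identifiers (99.66%), and 31 members were matched in RefSeq. Shared sequence is the share of windows of 100 bases found unchanged in transcripts of other genes.

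Members, marker lists and tests were chosen with earlier results of these data known. Named members are, per direction, the 8 with the largest smaller fold change of both cohorts at a mean of at least 1 CPM and the 4 most abundant, the 8 most abundant coding members, the 3 least abundant members, the 3 genes nearest under the CPM limit, and up to 5 with a neighbour called in both cohorts. The others were named after their values were seen. Marker lists not described with the results gave these calls: granulosa, oocyte, surface epithelium and oviduct 0 in either cohort, theca and stroma 3 higher in On T and 2 in Post T, endothelium and smooth muscle 2 and 0, lymphocyte 1 and 5, adipocyte 0 and 1, and none lower. Alternatives were DESeq2 1.42.0 (size factors or Wald test), no filter, limma 3.58.1 on log2(TPM + 1), the 8 libraries of a cohort alone, a block for the replicate number, other limits or scalings in the rule, and leaving out each library.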

Additional observations from a re-analysis of the deposited data

Results flagged for a closer look

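A single ovary stood far from the other 3 of its group in 16 of 152 member groups, where the gap to the nearest other library, divided by the range of the group, passed Dixon's critical value at the 95% level. Chance flags about 1 in 20 groups of independent, normally spread values. The groups here share ovaries, come from genes chosen on their levels and in part hold few counts, so 16 is not read as an excess. On T library 2 was the high one in A530064D06Rik (1.14 CPM against 0.464 to 0.548 in the others, ratio 0.875), Gm29683 (5.03 against 3.06 to 3.25, ratio 0.904) and D630023F18Rik (0.31 against 0.145 to 0.173, ratio 0.83). The treated ovaries of D630023F18Rik held few counts, and Post T library 1 was low there too (0.119 against 0.198 to 0.206, ratio 0.9).

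Post T library 3 was low in 2010003K11Rik (0.0988 CPM against 0.43 to 0.472, ratio 0.888), Gm17322 (0.593 against 1.0 to 1.08, ratio 0.834) and Gm14410 (6.98 against 10.4 to 10.6, ratio 0.945), and high in 4930486L24Rik (1.05 against 0.478 to 0.56, ratio 0.857). This ovary had the lowest summed luteal markers of its group, 5990 CPM against 6830 to 11000 CPM. Its part in these values was not tested.

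Among higher members, Post T library 1 was high in Gm15931 (1.98 CPM, ratio 0.873), and Post T library 4 was high in Gm10699 (1.69, ratio 0.871) and low in A530064D06Rik (1.49, ratio 0.847). Control for Post T library 2 was high in Gm15201 (1.81 CPM against 0.94 to 1.02, ratio 0.913). Among lower members, On T library 3 was high in Gm43618 (0.231 CPM, ratio 0.88), On T library 1 in Gm14410 (10.3, ratio 0.883) and Control for On T library 3 in Gm36377 (4.02, ratio 0.849), while Post T library 1 was low in Gm45428 (0.382, ratio 0.862).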

How the results depend on the processing

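Of 1672 member fold changes refitted under the alternatives, 1554 kept direction and side of the threshold, 107 lost a call, 11 gained one and 0 reversed. Since the rule set each member's direction in these same libraries, the kept directions and most kept calls follow from the selection. They are no test of the members. Of 63 called ones, 44 never lost the call. The rule gave 49 genes at a limit of 0.25 CPM (38 shared), 28 at 1 CPM, 37 on TMM-scaled CPM (33 shared) and 31 on TPM (25 shared). Without single libraries, where the rule is easier to meet, it gave 40 to 58. Counts of called genes in On T ran over 1081 to 2071 and in Post T over 1753 to 2568 without single libraries, and those of predicted and Rik genes over 81 to 176 and 143 to 216. Called neighbours ran over 8 to 12 and 7 to 10, and members called in the difference of effects or between controls stayed at 0. The share of counts in the class differed by -0.288 to -0.0788 percentage points in On T and by 0.145 to 0.376 in Post T. Limma on log2(TPM + 1) called 1130 genes in On T and 2 members in the difference of effects, DESeq2 called 1 member between controls, and a fit of 8 libraries called 99 predicted and Rik genes in On T. In each of these the cause was not tested, beyond the 8-library fit holding fewer samples. Same-numbered libraries deviated together with correlations of -0.019 to 0.13 in On T and 0.042 to 0.233 in Post T, so the numbers were not taken to pair mice. With the replicate block 1676 genes were called in On T and 2274 in Post T, and 3 member calls were lost. Treated levels near 3 counts limit the folds of D630023F18Rik, 1110002E22Rik, Gm43618 and Gm32219.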
